A study of Drosophila melanogaster with 12 samples.

Results

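Cultured organs that received the steroid hormone 20-hydroxyecdysone (20E) together with cycloheximide, an inhibitor of protein synthesis, were compared with organs that received neither. The comparison takes 6 of the 12 arrays of the study, namely the 3 labelled as treated with both compounds and the 3 labelled as untreated controls, and its members are all 13966 probe sets of the Affymetrix Drosophila Genome Array. Organs of w1118 Drosophila melanogaster, an otherwise wild-type white-eyed strain, were dissected from wandering larvae of the last instar about 8 h before pupariation, preincubated for 1 h with 8 animals per well, and then cultured for 6 h at 25 °C. One group received 5 µM 20E and 85 µM cycloheximide (here called 20E plus cycloheximide) and the other no compound (no hormone). Further groups of 3 arrays received 20E alone or cycloheximide alone, and their values are given beside those of the joint treatment. All groups share the strain, the culture and its length, and every culture held a mixture of whole organs, so that a change in 1 organ and a change in the share of that organ's RNA cannot be told apart. Cultures were harvested separately, 3 for each group.

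In Drosophila, 20E binds the heterodimer of the nuclear receptors EcR and Ultraspiracle, which then induces a small set of early genes directly. Many early genes encode transcription factors, and their proteins switch on the late genes and also turn down the early genes. Cycloheximide stops ribosomes and so keeps these proteins from being made, and it is also known to raise some transcripts without any hormone. For this reason the joint treatment is classically used to look at the direct arm of the hormone response. The study set it against cycloheximide alone to define its 20E primary-response genes. Here the organs given neither compound are the baseline from which both compounds together have moved the transcriptome. The calls therefore include effects of cycloheximide and are not a list of direct responses to 20E.

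Both treatments together raised 441 probe sets, 3.16% of those tested, and lowered 148, or 1.06%, where a call needed 1.3-fold or more and a limma p-value, adjusted over all probe sets, below 0.10. Together these calls made up 4.22% (589). At least a 2-fold change was seen in 82 of the higher and 25 of the lower probe sets, the median fold was 1.57 for the higher and 1.47 for the lower, and 185 and 79 of the calls were under 1.5-fold. The higher probe sets carried the names of 407 genes and the lower those of 141. The 3 arrays of 1 group lay entirely above or below those of the other in 439 of the 441 and 147 of the 148, where 9.54% and 8.77% of all probe sets did so. In 69 of the 441 the joint arrays also lay above all 9 other arrays of the study (1.01% of all probe sets), and in 37 of the 148 they lay below all 9 (0.981%). The calls rest on the same arrays, so these shares describe the called probe sets and test nothing. The median no hormone intensity, which also depends on the probes of each set, was 268 for the lower calls, 134 for the higher calls and 116 over all probe sets.

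**Figure D1:**
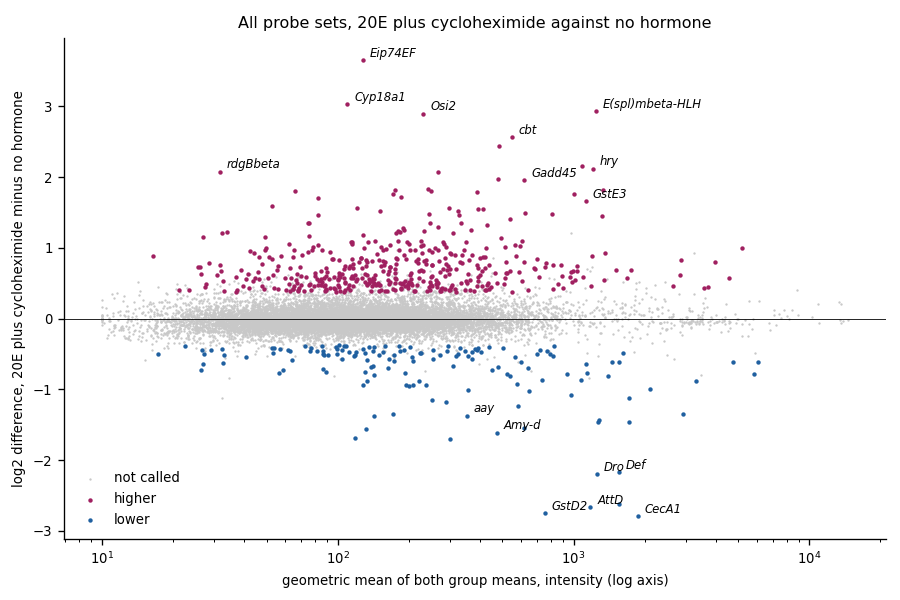
Log2 difference between 20E plus cycloheximide and no hormone (vertical axis) for each of the 13966 probe sets against the geometric mean intensity of both groups (horizontal axis, log scale, arbitrary fluorescence units). The 441 probe sets called higher reach 3.65 and the 148 called lower reach -2.79, and several of the largest changes on each side carry their gene names.

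Array medians ranged from 114 to 118, and the share of dim probe sets (under 50) was 15.7% to 17.5% on each array. The number of arrays, 3 a group, limits the precision, and the dim values came without detection calls. The SD of the deviations from the group mean was largest for 20E plus cycloheximide replicates 2 and 3, at 0.147 and 0.137 on the log2 scale, and lay between 0.101 and 0.129 for the other arrays. Without 20E plus cycloheximide replicate 2 the number of higher probe sets was 274, and without any other single array it lay from 295 to 484.

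In a list of nuclear receptor genes, which held those of the ecdysone cascade and others such as Hr96, all called changes were increases. Of 15 measured receptor genes 6 were called higher (40.00% against 3.16% of all probe sets) and 0 lower. The list median log2 difference was 0.13 against -0.01 for all probe sets. Eip75B, the receptor of the early puff at 75B, read 456, 446 and 548 on the no hormone arrays and 1175, 1489 and 1396 on the 20E plus cycloheximide arrays. The joint arrays were all higher, by 2.8-fold (log2 difference 1.49 ± 0.11 SE, adjusted p = 1.82e-05). Eip78C, an orphan receptor from the early puff at 78C, read 42.4, 50.3 and 43.2 without hormone and 128, 187 and 134 with both compounds. This was a rise of 3.27-fold (log2 difference 1.71 ± 0.20 SE, adjusted p = 0.000541) from a dim level. With 20E alone the mean was 161, from which the joint level was not separable (log2 difference -0.07, adjusted p = 0.918), and with cycloheximide alone it was 47.0.

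Hr4, a receptor of the early-late class, stood at 110.0, 130.02 and 129.7 in the untreated organs and at 244, 269 and 273 in the treated ones. Its groups were far apart relative to their spread, at 2.13-fold (log2 difference 1.09 ± 0.08 SE, adjusted p = 1.82e-05). A second, dimmer Hr4 probe set overlapped between the groups (log2 difference -0.13, adjusted p = 0.615). Hr39 went from 51.3, 50.6 and 52.7 to 81.4, 111 and 99.8, or 1.87-fold (log2 difference 0.91 ± 0.12 SE, adjusted p = 0.00128), again without overlap. Hr78, which binds many ecdysone-regulated puff sites, was 1.54-fold higher (log2 difference 0.62, adjusted p = 0.015), and Hr96, a receptor linked to xenobiotic and lipid responses, rose from a mean of 20.0 to 34.0 (log2 difference 0.74, adjusted p = 0.0919). Both genes also stood high with cycloheximide alone, at means of 126 for Hr78 and 48.1 for Hr96. The call of Hr96, which was under 50 in both groups, was lost without any 1 of the no hormone or 20E arrays, without 20E plus cycloheximide replicate 1 or 2 and without cycloheximide replicate 2, at adjusted p-values from 0.11 to 0.303.

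The probe sets of the hormone receptor gene disagreed. The main probe set of EcR read 279, 329 and 296 without hormone and 272, 286 and 284 with both compounds, which overlapped (log2 difference -0.10, adjusted p = 0.708), whereas a second, dimmer EcR probe set went from 121, 90.8 and 141 to 173, 165 and 197 and was called higher (log2 difference 0.62, adjusted p = 0.0311), though not without 20E plus cycloheximide replicate 3 (adjusted p = 0.101). For usp, the partner of EcR, the log2 difference was 0.01 with an adjusted p of 0.989. Hr3, an early-late receptor, showed the same split, with 32.5, 32.8 and 33.1 against 59.0, 86.8 and 76.5 for a dim probe set that was called (log2 difference 1.16, adjusted p = 0.00172) and a log2 difference of -0.08 (adjusted p = 0.702) for the brighter one. The log2 difference of ftz-f1, a receptor gene of the prepupal period, was -0.31 (adjusted p = 0.192), and the log2 differences of svp, ERR, Hr38, tll and Hnf4 lay between -0.12 and 0.24 with none called.

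Early genes that encode no receptor included the largest increase of the whole comparison. Among 10 such genes 5 rose and 0 fell, where 3.16% of all probe sets were called higher and 1.06% lower. The list median log2 difference was 0.31. Eip74EF, an ETS-domain transcription factor and a classical early puff gene, read 47.5, 33.1 and 28.0 in the untreated organs and 340.2, 584 and 441 in the treated ones. That is the largest increase on the array, 12.6-fold (log2 difference 3.65 ± 0.24 SE, adjusted p = 7.08e-06), and all 3 joint arrays were several times above the brightest control. Cyp18a1, the cytochrome P450 that breaks down 20E, moved from 37.1, 38.5 and 39.1 to 247, 367 and 335. The controls hardly varied, and the joint level was higher by 8.17-fold (log2 difference 3.03 ± 0.19 SE, adjusted p = 5.47e-06). Both started under 50, and with a floor of 50 their log2 differences were 3.15 and 2.64. With 20E alone the mean of Eip74EF was 399, not separable from the joint level (log2 difference 0.20, adjusted p = 0.794), and cycloheximide alone raised it to 78.6 (log2 difference 1.15, adjusted p = 0.0238).

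Kr-h1, a zinc finger factor of both ecdysone and juvenile hormone responses, read 42.0, 32.7 and 30.5 without hormone and 135, 147 and 90.8 with both compounds (3.51-fold, log2 difference 1.81 ± 0.18 SE, adjusted p = 0.000168). Its joint arrays stood above every other array of the study. The Broad-Complex gene br, whose zinc finger proteins direct entry into metamorphosis, was at 184, 111 and 160.0 against 353, 429 and 280.4 on its brightest called probe set (2.35-fold, log2 difference 1.23 ± 0.20 SE, adjusted p = 0.00465), and 3 of its 4 probe sets were called. The call of 1 of these, at a log2 difference of 0.93, was lost without no hormone replicate 2 (adjusted p = 0.106) or 20E plus cycloheximide replicate 2 (0.1). E23, an ABC transporter gene, rose less, from 389.7, 371 and 331 to 479, 529 and 505 (1.39-fold, log2 difference 0.47 ± 0.10 SE, adjusted p = 0.0189). A second E23 probe set overlapped between the groups (log2 difference 0.15, adjusted p = 0.662). Among the members not called, with their log2 differences, were Eip93F (0.15), Eip63F-1 (-0.09), dor (0.05) and MsrA (0.05). Of the imaginal disc Imp genes, ImpE3, ImpL2 and ImpE2 rose by 0.84, 0.75 and 0.70 on the log2 scale, while ImpE1 (0.02) and ImpL1 (-0.14) were not called, nor was a second ImpE3 probe set (log2 difference -0.12, adjusted p = 0.818).

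**Figure D2:**
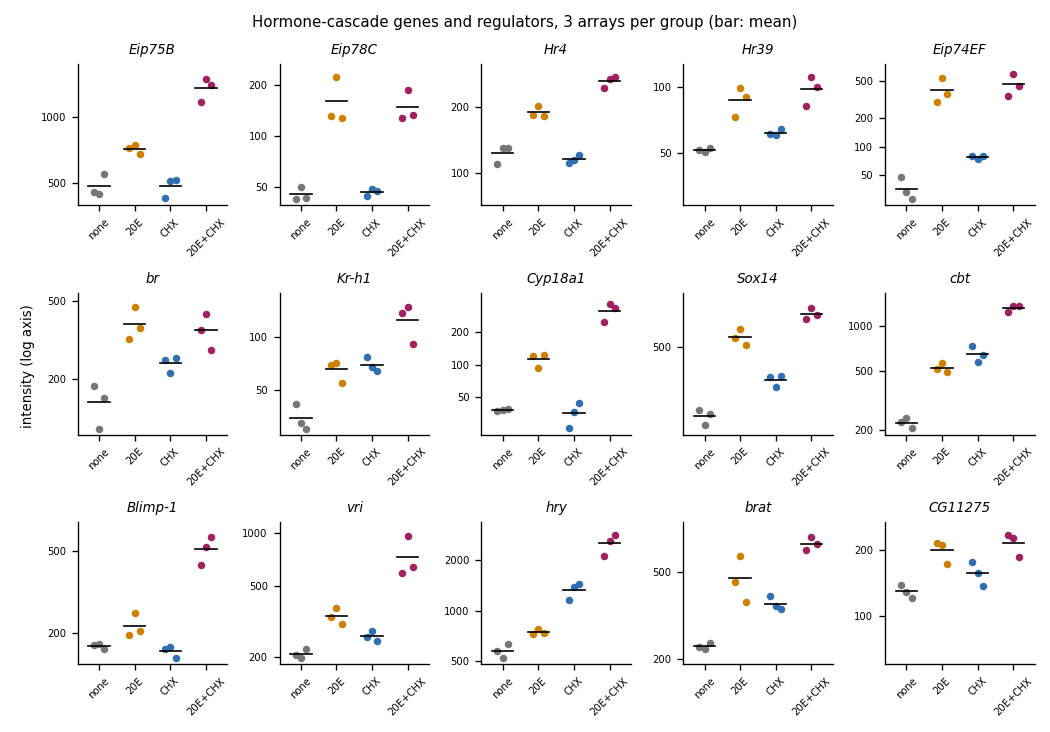
Intensities (vertical axes, log scale, arbitrary units) of 15 hormone-cascade genes and regulators on each of the 12 arrays, with 3 points and a bar at the mean for no hormone (none), 20E alone, cycloheximide alone (CHX) and both (20E+CHX). In all 15 panels the joint points lie above the no hormone points. In several panels, for example those of Cyp18a1, Blimp-1, vri, hry and cbt, they also lie above the points of both single treatments.

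All 7 regulators that the study picked for Northern blots were higher with both compounds, but they had been chosen for their response to 20E on these same arrays, so the count is not independent evidence. The zinc finger gene cbt (cabut) read 227, 241 and 206 without hormone and 1251, 1361 and 1377 with both compounds (5.93-fold, log2 difference 2.57 ± 0.10 SE, adjusted p = 8.22e-08). It rose with each single compound too, to means of 526 with 20E and 649 with cycloheximide, and the joint level was above each of these (log2 difference 1.34, adjusted p = 5.18e-05 against 20E and log2 difference 1.04, adjusted p = 0.000354 against cycloheximide). The bHLH repressor gene hairy, hry in current nomenclature, stood at 574, 525 and 633 in the controls and 2131, 2618 and 2814 in the joint cultures (4.35-fold, log2 difference 2.12 ± 0.12 SE, adjusted p = 2.75e-06). Here cycloheximide alone gave 1334 and 20E alone 746, and again the joint arrays exceeded both.

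The bZIP factor gene vri (vrille) went from 204, 198 and 222 to 596, 966 and 647 (3.47-fold, log2 difference 1.79 ± 0.15 SE, adjusted p = 4.86e-05), with replicate 2 the highest, and the joint arrays were above both single treatments (log2 difference 1.08, adjusted p = 0.00469 against 20E, and log2 difference 1.46, adjusted p = 0.000554 against cycloheximide). Blimp-1, a zinc finger repressor, read 174, 177 and 167 against 426, 525 and 587 (2.95-fold, log2 difference 1.56 ± 0.12 SE, adjusted p = 1.82e-05). Sox14, an HMG-box factor, was raised from 259.5, 221 and 248 to 675, 753 and 697 (2.92-fold, log2 difference 1.55 ± 0.09 SE, adjusted p = 2.75e-06), although its level with 20E alone, 557, was not separable from the joint level under the call rule (log2 difference 0.35, adjusted p = 0.0798, under 1.3-fold). For brat (brain tumor), a translational repressor gene, the arrays read 228, 222 and 236 and 626, 719 and 669 (2.93-fold, log2 difference 1.55 ± 0.14 SE, adjusted p = 6.07e-05). CG11275 had the smallest rise of the 7, 1.66-fold (log2 difference 0.73, adjusted p = 0.00497), and its joint mean of 215 stood beside 199.6 with 20E alone, a log2 difference of 0.11 (adjusted p = 0.759).

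Whether the joint change was more or less than the sum of both single changes on the log2 scale was tested as a departure, and 19 probe sets on the array (0.136%) departed at an adjusted p under 0.10, of which 7 were among the 589. Against 20E alone, 137 probe sets were higher with both compounds (0.981%) and 141 lower (1.01%), and against cycloheximide alone 95 were higher (0.68%) and 80 lower (0.573%). These comparisons share the 20E plus cycloheximide arrays with each other and with the comparison against no hormone, and each single treatment was set against the same no hormone arrays, so the values are given side by side. Osi2, a member of the insect-specific Osiris family, had the largest departure of the 7. Its intensities were 81.2, 74.6 and 93.9 without hormone and 423, 813 and 688 with both compounds (7.46-fold, log2 difference 2.90 ± 0.22 SE, adjusted p = 1.82e-05), but the means with 20E alone (75.5) and cycloheximide alone (85.9) were not called (log2 difference -0.14, adjusted p = 0.813, and log2 difference 0.02, adjusted p = 0.966). The departure was 3.01 log2 units (adjusted p = 0.00842). Osi2 was also the single called gene among 24 measured Osiris genes (4.17% higher against 3.16% of all probe sets). The other 23 had log2 differences between -0.28 and 0.09.

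Cyp18a1 rose to a mean of 113 with 20E alone and stood at 35.6 with cycloheximide alone, against 317 with both, a departure of 1.62 log2 units (adjusted p = 0.0867). The joint level was 2.8-fold that with 20E alone (log2 difference 1.49, adjusted p = 0.00296). Blimp-1 was called with neither single treatment, at means of 217 and 163, and departed by 1.32 log2 units (adjusted p = 0.0239). Eip75B departed by 0.90 log2 units (adjusted p = 0.0942), with 719 under 20E and 484 under cycloheximide. The gene tai (taiman), which encodes a coactivator of the ecdysone receptor, read 61.6, 60.1 and 62.2 in the controls and 114, 127 and 121 in the joint cultures (1.96-fold, log2 difference 0.97 ± 0.07 SE, adjusted p = 1.45e-05). The replicates of each group lay close together, and the departure was 0.62 log2 units (adjusted p = 0.0842). Each of these 5 genes, Osi2 included, was called higher with both compounds than with 20E alone.

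Tnpo, which encodes the nuclear import receptor transportin, and CG11529 departed in the other direction. Tnpo rose to 156 with 20E, 129 with cycloheximide and 133 with both from 95.0, and departed by -0.68 log2 units (adjusted p = 0.0908). CG11529 read 393, 358 and 392 without hormone and 425, 547 and 601 with both, which is 1.36-fold (log2 difference 0.45, adjusted p = 0.0794), while the means were 776 with 20E and 627 with cycloheximide. Its joint level was thus lower than that with 20E alone (log2 difference -0.58, adjusted p = 0.0487), and the departure was -1.29 log2 units (adjusted p = 0.0383). The call of CG11529 against no hormone did not hold when any 1 of the 6 arrays but the first joint array was left out, with adjusted p-values from 0.139 to 0.234, nor without 20E replicate 3 (0.104) or cycloheximide replicate 3 (0.1).

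Enhancer of split and Bearded family genes, known as targets and modulators of Notch signalling, included 7 increases among 13 measured genes and 0 decreases. The share called higher was 53.85% against 3.16% of all probe sets, and the list median log2 difference was 0.70. E(spl)mbeta-HLH, a bHLH repressor gene, read 501, 442 and 405 without hormone and 3439.7, 3191 and 3639.9 with both compounds (7.64-fold, log2 difference 2.93 ± 0.11 SE, adjusted p = 7.76e-08). Cycloheximide alone gave 3503, not separable from the joint mean of 3423 (log2 difference -0.03, adjusted p = 0.956), and 20E alone gave 526. The Bearded family genes E(spl)m4-BFM (269, 251 and 199.99 against 1099, 677 and 1113, log2 difference 1.98, adjusted p = 0.000543) and E(spl)m2-BFM (146, 130.2 and 104 against 524, 338 and 510.3, log2 difference 1.84, adjusted p = 0.000601) had no overlap either, and their means with cycloheximide alone were 998 and 465.

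E(spl)malpha-BFM, E(spl)mdelta-HLH, E(spl)m7-HLH and E(spl)m3-HLH rose by 1.77, 1.47, 1.36 and 0.70 on the log2 scale, and the call of E(spl)m3-HLH was lost without no hormone replicate 3 (adjusted p = 0.107). The members not called, with their log2 differences, were E(spl)m6-BFM (0.37), E(spl)m5-HLH (-0.01), Kaz-m1 (0.03), Tom (-0.05), Brd (-0.24) and the main probe set of Ocho (-0.23). A second Ocho probe set was called higher (log2 difference 0.41, adjusted p = 0.00866), but was under 1.3-fold without 20E plus cycloheximide replicate 1 (adjusted p = 0.0397). The related gene emc (extra macrochaetae), which encodes an HLH protein without a DNA-binding region, was at 385, 289 and 322 against 861, 965 and 812 (2.66-fold, log2 difference 1.41 ± 0.12 SE, adjusted p = 5.75e-05), with 1088 under cycloheximide alone. Imaginal disc markers stood higher with both compounds, their 7 genes summing from 946 to 1009.9 without hormone and from 1085 to 1177 with both. With cycloheximide alone they summed from 1176 to 1236 and with 20E alone from 967 to 1015. With both compounds 1 of the 7, en, was called. None of the 7 was at 0, and their part in these differences was not tested.

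Of 15 immediate early and JNK pathway genes 6 were called higher (40.00% against 3.16% of all probe sets) and 0 lower (median log2 difference 0.21). Gadd45, a stress-induced growth arrest gene, stood at 350.1, 302 and 287 without hormone and 1239, 1398 and 1031 with both compounds (3.89-fold, log2 difference 1.96 ± 0.17 SE, adjusted p = 5.75e-05). Ets21C, an ETS factor gene induced by JNK signalling, read 134, 177 and 129.9 against 359, 442 and 424 (2.79-fold, log2 difference 1.48 ± 0.13 SE, adjusted p = 5.87e-05). The Fos gene kay went from 166, 215 and 144 to 317, 366 and 337 (log2 difference 0.98, adjusted p = 0.00324), while Jra, the gene of its partner Jun, had a log2 difference of 0.13 and was not called. Mmp1, a matrix metalloproteinase gene, was 2.04-fold higher (log2 difference 1.03, adjusted p = 0.00459) and puc, which encodes a phosphatase that restrains JNK, rose by 0.65 on the log2 scale (adjusted p = 0.0631). The call of puc was lost without no hormone replicate 3 (0.207) and without 20E plus cycloheximide replicate 1 (0.137) or 2 (0.211). Cycloheximide alone gave means of 975 for Gadd45, 397 for Ets21C, 435 for kay and 990.1 for Mmp1, and none of the 4 was separable from its joint level. With 20E alone the same genes had means of 339.5, 148, 196 and 509, and none was called with it.

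The EGFR ligand gene spi (spitz) was the single called member of 11 EGFR pathway genes (9.09% higher against 3.16% of all probe sets). Its arrays read 392, 358 and 254 without hormone and 731, 832 and 628 with both compounds (2.21-fold, log2 difference 1.14 ± 0.19 SE, adjusted p = 0.0049), and the joint arrays were above all others, although the test called neither single treatment, at 498 with 20E and 419.9 with cycloheximide. Among the remaining 15 largest increases were genes known here by number. CG8483 went from 264, 184 and 179 to 1151, 1249 and 976 (log2 difference 2.45, adjusted p = 5.75e-05), CG3348 from 486, 456 and 608 to 2092, 2669 and 2156 (log2 difference 2.16, adjusted p = 6.39e-06), and CG4367 from 85.7, 104 and 84.1 to 249, 472 and 284 (log2 difference 1.82, adjusted p = 0.000597). CG5493 (log2 difference 2.07) and CG2444 (1.82) spread more between arrays, with 20E plus cycloheximide replicate 2 the highest in both. Cycloheximide alone gave means of 725 for CG8483, 1365 for CG3348, 209 for CG4367, 807 for CG5493 and 1788 for CG2444. With 20E alone the means were 372, 1039, 304, 204 and 2166 in the same order. CG3348 was called higher with both compounds than with each single compound, and the others were not. The dim gene rdgBbeta, a phosphatidylinositol transfer protein gene, read 16.4, 13.9 and 14.0 against 47.6, 108 and 46.9 (log2 difference 2.08, adjusted p = 0.00132), but with a floor of 50 its log2 difference was 0.37 with an adjusted p of 0.6.

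Glutathione transferases, enzymes that conjugate glutathione to toxins and lipid peroxides, changed in both directions. Of 35 measured genes 10 were lower (28.57% against 1.06% of all probe sets) and 3 higher (8.57% against 3.16%). The list median log2 difference was -0.10. Of the 10 lower genes, 9 were delta class genes that are neighbours on chromosome arm 3R. GstD2 fell most, from 2308, 2097 and 1529.7 without hormone to 295, 301 and 270.2 with both compounds, 6.76-fold lower (log2 difference -2.76 ± 0.17 SE, adjusted p = 4.86e-06). All 3 joint arrays were below all 9 others. GstD5 went from 182, 296 and 208 to 74.2, 73.4 and 79.0 (log2 difference -1.57, adjusted p = 0.0026) and GstD3 from 904, 1367 and 927 to 329, 375 and 368 (log2 difference -1.55, adjusted p = 0.00109).

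The same direction was seen for GstD9 (397, 357 and 368 against 162, 179 and 165, log2 difference -1.15, adjusted p = 2.86e-06), GstD4 (-0.93), GstD1 (-0.61), GstD10 (-0.60), GstD6 (-0.57) and GstD7 (-0.41), all as log2 differences, whereas GstD8 (-0.12) and GstD11 (-0.22) were not called. GstD6 lost its call without no hormone replicate 3 (adjusted p = 0.119) or 20E plus cycloheximide replicate 1 (0.108), and GstD7 without no hormone replicate 2 (0.101). Cycloheximide alone gave means of 347 for GstD2 and 73.2 for GstD5, and between the joint and the cycloheximide arrays the differences missed the threshold (log2 difference -0.26, adjusted p = 0.681, and log2 difference 0.05, adjusted p = 0.974). GstE1, of the epsilon class, also fell, at 2564, 2132 and 1677 without hormone and 771, 759.5 and 741 with both (log2 difference -1.47, adjusted p = 0.00213), with 758 under cycloheximide.

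GstE3 and GstE5, epsilon class genes as well, moved the other way. GstE3 read 678, 629.8 and 588 in the controls and 1802, 2388 and 1835 in the joint cultures, a rise of 3.16-fold (log2 difference 1.66 ± 0.12 SE, adjusted p = 1.29e-05), although cycloheximide alone lowered it to 419 (log2 difference -0.59, adjusted p = 0.0182) and 20E alone gave 2330.1. GstE5 rose from 73.4, 79.4 and 74.7 to 123, 162 and 123 (log2 difference 0.83, adjusted p = 0.00064). Their joint levels were not separable from those with 20E alone (log2 difference -0.22, adjusted p = 0.449 for GstE3, and log2 difference -0.15, adjusted p = 0.547 for GstE5) and lay above those with cycloheximide alone (log2 difference 2.25, adjusted p = 5.08e-06, and log2 difference 0.94, adjusted p = 0.000554). The zeta class gene GstZ2 was 0.44 higher on the log2 scale (adjusted p = 0.00469), but under 1.3-fold without no hormone replicate 3 (adjusted p = 0.0178). Of 10 genes of glutathione synthesis and redox defence, Keap1, whose protein retains the stress factor CncC, rose (log2 difference 0.85, adjusted p = 0.00288), while cnc (log2 difference 0.09), Gclc (-0.25), Gclm (-0.41), Cat (-0.13) and Sod2 (0.02) were not called.

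Antimicrobial peptide genes, the effectors of the Toll and Imd immune pathways, were mostly lower. Of 15 measured genes 11 were called lower (73.33% against 1.06% of all probe sets) and 0 higher. The list median log2 difference was -1.12, and between 8 and 12 genes were lower over the alternatives. CecA1, a cecropin gene, had the largest decrease of the comparison, from 4394, 5848 and 4293 without hormone to 459.5, 1012 and 716 with both compounds (6.92-fold lower, log2 difference -2.79 ± 0.30 SE, adjusted p = 0.000307). CecA2 (log2 difference -2.62, adjusted p = 0.000414), CecB (log2 difference -1.38, adjusted p = 0.00228) and CecC (log2 difference -1.24, adjusted p = 0.00127) fell too. These 4 genes lie side by side on 3R and their probe sets may share hybridisation, which was not tested.

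AttD, an attacin gene, went from 2597, 3621 and 2644 to 338, 587 and 489 (log2 difference -2.67, adjusted p = 0.000928), below every other array of the study. Def, the defensin gene, read 3354, 3600.4 and 2576 against 374, 903 and 999 (log2 difference -2.18, adjusted p = 0.0064) and Dro, the drosocin gene, 2652, 3217 and 1926 against 363, 970.1 and 485 (log2 difference -2.20, adjusted p = 0.0104). The joint arrays of both genes spread over more than a 2-fold range, with replicate 1 the lowest, but stayed under the controls. Mtk, Drs, DptB and AttB fell by 1.12, 0.99, 0.88 and 0.78 on the log2 scale, and AttA (-0.79), DptA (-0.48), Drsl5 (0.61) and Drsl6 (-0.03) were not called. The calls of Drs, DptB and AttB were lost without no hormone replicate 1 or 2 or 20E plus cycloheximide replicate 1 (adjusted p from 0.136 to 0.292). Those of Drs and DptB were also lost without 20E plus cycloheximide replicate 3 (0.215 and 0.174), that of AttB without no hormone replicate 3 (0.136), and that of Drs without 20E replicate 3 or any 1 cycloheximide array (from 0.123 to 0.133). Cycloheximide alone gave means of 900.1 for CecA1 and 807 for AttD, and the joint differences from it missed the threshold (log2 difference -0.35, adjusted p = 0.768, and log2 difference -0.80, adjusted p = 0.42). Markers of the fat body, which makes most of these peptides, summed from 19801 to 21419 without hormone and from 18587 to 21122 with both, which overlapped, and none of the 3 measured markers was called or at 0. For 1 of the 3, Fbp2, all joint arrays lay below the no hormone arrays (log2 difference -0.51, adjusted p = 0.272). The others, Lsp2 and Fbp1, had log2 differences of 0.03 and 0.01. The part of the fat body in these decreases was not tested.

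**Figure D3:**
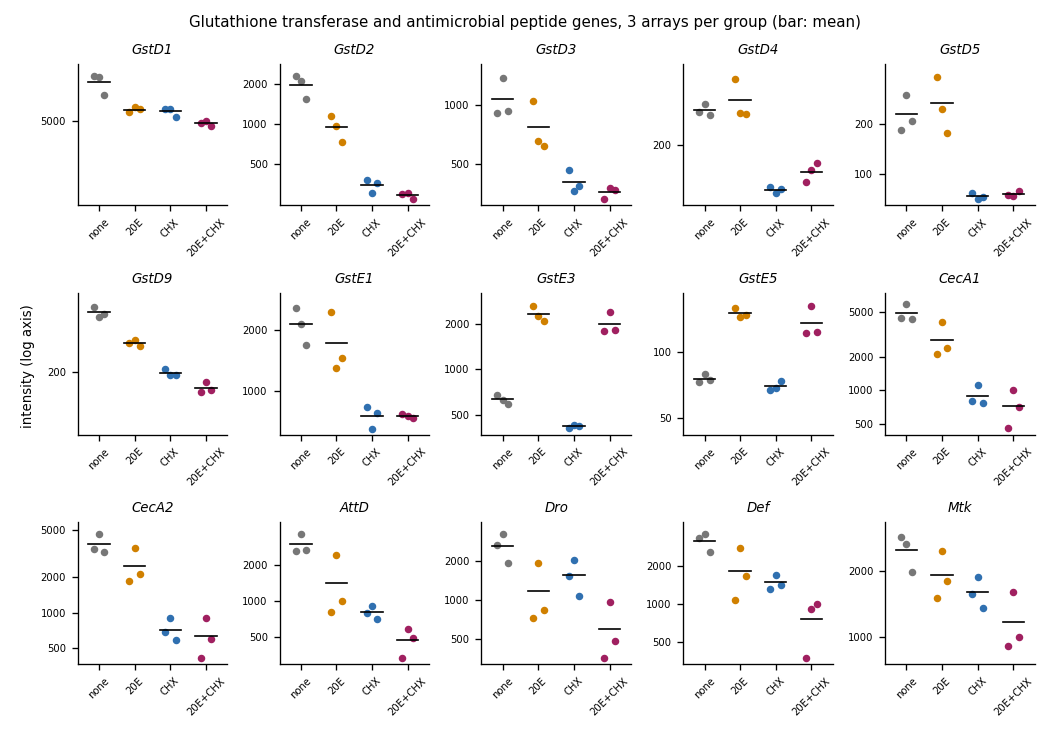
Intensities (vertical axes, log scale, arbitrary units) of 9 glutathione transferase and 6 antimicrobial peptide genes on all 12 arrays, 3 points and a mean bar for each of no hormone, 20E, cycloheximide (CHX) and both. GstE3 and GstE5 are high with 20E with or without cycloheximide, whereas the other 13 genes are lower with both compounds than without hormone.

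Upstream of the peptides changes were called in both directions. Of 23 recognition and signalling genes 2 rose and 2 fell, or 8.70% each way against 3.16% higher and 1.06% lower over all probe sets. At an unadjusted limma p under 0.05 stood 11 of the 23. Of all 13966 probe sets 1198 did so with an increase and 881 with a decrease. The gene pirk, an inhibitor of the Imd pathway, went from 147, 150.0 and 137 to 263, 285 and 299.5 (log2 difference 0.97, adjusted p = 4.86e-05), above all other arrays, and PGRP-LA, a recognition protein gene, from 191, 190.2 and 159 to 352, 421 and 277 on 1 probe set (log2 difference 0.94, adjusted p = 0.00332), with a log2 difference of 0.03 (adjusted p = 0.946) on a second. PGRP-SA, which senses bacteria for Toll, fell from 498, 644 and 677 to 329, 410.0 and 385 (log2 difference -0.69, adjusted p = 0.0133). PGRP-LF was lower as well (log2 difference -0.64, adjusted p = 0.0185) but was under 50 on all arrays compared, and with a floor of 50 its log2 difference was 0.00 (adjusted p = 1). Rel, the Imd transcription factor gene, had a log2 difference of 0.67 (adjusted p = 0.112), and those of Tl, imd, Dif and dl lay between 0.08 and 0.14. Tep1, a thioester-containing immune protein gene, was reduced from 241, 233 and 159 to 52.9, 87.8 and 58.1 (3.21-fold lower, log2 difference -1.68, adjusted p = 0.00258).

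The phosphoserine phosphatase gene aay (astray) stood at 608, 666 and 445 in the controls and 203, 229 and 222 in the joint cultures (log2 difference -1.38, adjusted p = 0.0023), with 254 under 20E alone and 496 under cycloheximide. Acbp6, an acyl-CoA binding protein gene, went from 2189, 2833 and 1391 to 610.5, 797 and 903 (log2 difference -1.43, adjusted p = 0.0111). Cyp6a23 fell from 217, 286 and 325 to 114, 113 and 94.5 (log2 difference -1.35, adjusted p = 0.00258), below all other arrays. Among 85 measured P450 genes it had the largest of 4 decreases (4.71% of the list against 1.06% of all probe sets), and 2 rose (2.35% against 3.16%). Timp, an inhibitor of metalloproteinases, was lower (163, 178 and 193 against 88.2, 88.4 and 101, log2 difference -0.94, adjusted p = 0.00302) while Mmp1 was higher. In sugar metabolism the fructose-1,6-bisphosphatase gene fbp (log2 difference -0.51, adjusted p = 0.0076) and Gapdh2 (log2 difference -0.53, adjusted p = 0.0235) fell and Pepck1 rose (log2 difference 0.62), which made 2 lower and 1 higher of 18 measured genes (11.11% and 5.56%). The call of Pepck1 was lost without any 1 of the no hormone or cycloheximide arrays, 20E replicate 3 or 20E plus cycloheximide replicate 1 or 3 (adjusted p from 0.109 to 0.269). Malpighian tubule markers were also lower with both compounds, their 4 genes summing from 480.3 to 511 without hormone and from 399 to 410.2 with both, with none at 0, and their part in these decreases was not tested. Uro, which encodes urate oxidase, was the 1 of the 4 called (log2 difference -0.49), and lost the call without no hormone replicate 1 or 3 or 20E plus cycloheximide replicate 1 or 3 (adjusted p from 0.101 to 0.135).

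Autophagy and cell death are programs that remove larval tissues at metamorphosis. Of 22 autophagy genes 3 rose and 1 fell (13.64% and 4.55%, against 3.16% and 1.06% of all probe sets). Atg1, the kinase gene that starts autophagy, read 256, 221 and 174 without hormone and 399, 467 and 362 with both compounds (1.9-fold, log2 difference 0.92 ± 0.17 SE, adjusted p = 0.00924), and 522 with 20E alone. The autophagy receptor gene ref(2)P, the fly homologue of sequestosome, fell from 803, 641 and 689.7 to 424, 402 and 388 (log2 difference -0.81, adjusted p = 0.00337) and was below all other arrays. Dark and Dronc, which encode the apoptosome adaptor and its initiator caspase, rose from 80.7, 67.8 and 66.0 to 126, 141 and 116 (log2 difference 0.84, adjusted p = 0.00407) and from 188, 177 and 159.9 to 291, 358 and 276 (log2 difference 0.81, adjusted p = 0.00461). Among 14 cell death genes 3 rose (21.43%) and 0 fell, and with log2 differences in brackets rpr (0.26), grim (-0.07) and Dcp-1 (0.11) were not called.

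In fat and insulin signalling, bmm (brummer), the main triglyceride lipase gene, rose from 217, 212 and 206 to 343, 445 and 370.1 (log2 difference 0.86, adjusted p = 0.000362), and mdy (midway), which encodes an enzyme of triglyceride synthesis, from 123, 129 and 135 to 228, 297 and 239 (log2 difference 0.97, adjusted p = 0.000989). The lipid transfer protein gene Mtp was 1.42-fold higher (log2 difference 0.51, adjusted p = 0.0211). ImpL2, whose protein binds insulin-like peptides, was at 786, 603 and 666 against 1159, 1070.0 and 1220.2 (log2 difference 0.75, adjusted p = 0.00142), and the kinase gene Pdk1 rose on 1 probe set (log2 difference 1.04, adjusted p = 0.00912) but not on the other (log2 difference 0.20, adjusted p = 0.53). With their log2 differences, InR (0.33), foxo (-0.14), Akt (0.03) and Thor (0.28) were not called.

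Several housekeeping and stress lists held no calls. None of 28 cytoplasmic ribosomal protein genes was called, with log2 differences between -0.18 and 0.03, nor any of 28 proteasome genes (between -0.18 and 0.15), 17 mitosis and DNA replication genes (between -0.13 and 0.31) or 11 chromatin genes (between -0.07 and 0.24). None of 8 small heat shock protein genes was called, although their range was wider, between -0.52 and 0.42. At an unadjusted limma p under 0.05 stood 0 of the ribosomal protein and 0 of the proteasome genes, 6 of the mitosis and replication genes, 1 of the chromatin genes and 4 of the small heat shock protein genes. Of all 13966 probe sets 1198 did so with an increase and 881 with a decrease. The L71 late puff genes, which code for small secreted peptides of the salivary gland, had 0 calls among 10, 2 at an unadjusted p under 0.05, and all 10 had no hormone means under 50. Their log2 differences lay between -0.37 and -0.02. In 3 of the 10 all joint arrays lay below the no hormone arrays, which 8.77% of all probe sets did. The 9 measured glue genes had log2 differences between -0.32 and 0.58, and 1 of them, Eig71Ee, was called. In 3 of the 9 all joint arrays lay above the no hormone arrays, which 9.54% of all probe sets did. Sgs3, Sgs7 and Sgs8 had log2 differences of 0.12, -0.06 and 0.07. Those of the larval serum and fat body protein genes Lsp2 and Fbp1 were 0.03 and 0.01. Fbp2, of the same list, was not called at -0.51 (adjusted p = 0.272), but its joint arrays all lay below the no hormone arrays.

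**Figure D4:**
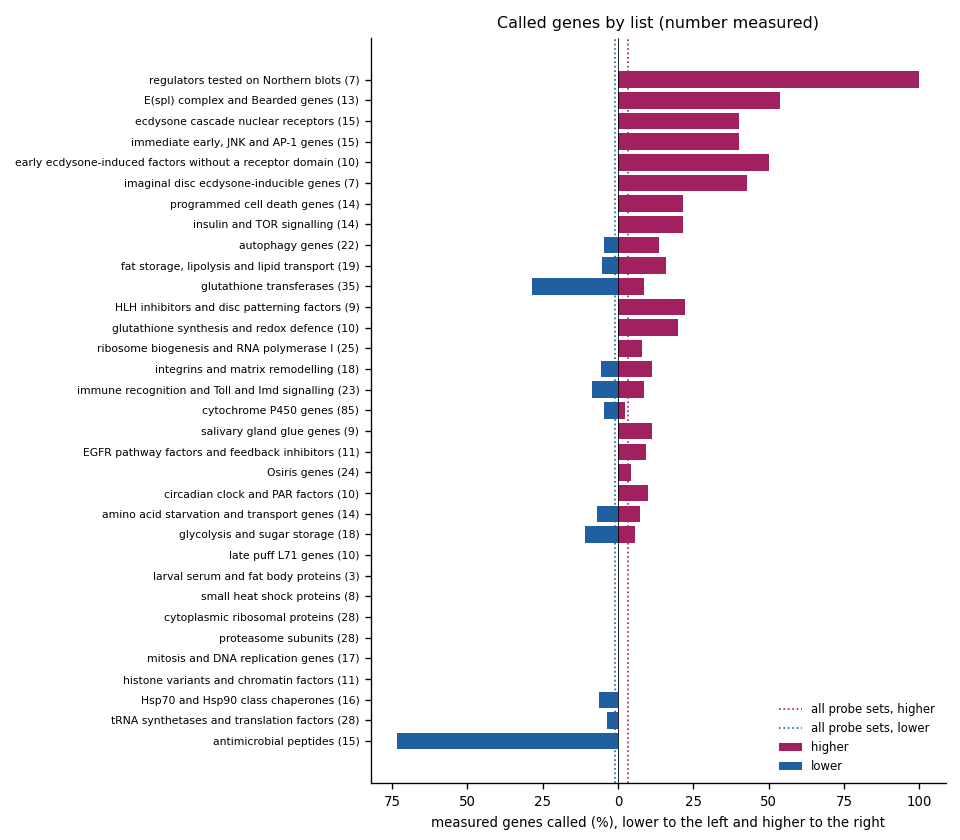
Share of the measured genes of each list called higher (bars to the right) or lower (bars to the left) with 20E plus cycloheximide against no hormone, with the number measured in brackets and the shares over all probe sets (3.16% and 1.06%) as dotted lines. Antimicrobial peptides and glutathione transferases carry the longest bars to the left, and the regulators tested on Northern blots, which were chosen on these arrays, and the E(spl) and Bearded genes the longest to the right.

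Further named calls depended on single arrays and are given here as log2 differences. They were increases of Atg7 (0.60) and Atg18b (0.57) in autophagy, hid (0.61) in cell death, scyl (0.63) in the response to starvation, vkg (0.91), which encodes a collagen chain, the glutamine synthetase gene Gs1 (0.67), the gluconeogenic gene Pepck1 (0.62), the growth control genes Myc (0.57) and Mnt (0.40), Cyp9f2 (0.78) and the glue list member Eig71Ee (0.44). They were also decreases of the amylase gene Amy-d (-1.61), the fatty acid synthase gene FASN1 (-0.40), the mitochondrial chaperone gene Hsc70-5 (-0.47), ValRS (-0.41), Cyp6a20 (-0.50) and Cyp6a21 (-0.59). Leaving out no hormone replicate 1 ended the calls of vkg, Gs1, scyl, Pepck1, hid, Atg7, Atg18b, Hsc70-5, Cyp6a20, Cyp6a21 and Amy-d, at adjusted p-values from 0.109 to 0.187. Leaving out no hormone replicate 2 ended the calls of vkg, Cyp9f2, Gs1, scyl, Pepck1, hid, Atg7, Myc, Atg18b, Eig71Ee, FASN1, ValRS, Hsc70-5, Cyp6a21 and Amy-d, at adjusted p-values from 0.0555 to 0.31. Leaving out no hormone replicate 3 ended the calls of vkg, Gs1, Pepck1, hid, Atg7, Myc, Atg18b, Eig71Ee, FASN1, Hsc70-5 and Cyp6a21, at adjusted p-values from 0.121 to 0.287. Leaving out 20E plus cycloheximide replicate 1 ended the calls of Cyp9f2, Gs1, Pepck1, Myc, Eig71Ee, FASN1, ValRS, Hsc70-5, Cyp6a21 and Amy-d, at adjusted p-values from 0.0502 to 0.269. Leaving out 20E plus cycloheximide replicate 2 ended the calls of vkg, Cyp9f2, Gs1, scyl, hid, Atg7, Myc, Atg18b, Eig71Ee and Cyp6a21, at adjusted p-values from 0.136 to 0.303. Leaving out 20E plus cycloheximide replicate 3 ended the calls of vkg, Gs1, scyl, Pepck1, hid, Atg18b, Mnt, FASN1, Hsc70-5, Cyp6a21 and Amy-d, at adjusted p-values from 0.0342 to 0.202. Leaving out an array of 20E or cycloheximide alone, which enters only through the shared spread, ended calls of Gs1, Eig71Ee, Pepck1, Atg18b and vkg, at adjusted p-values from 0.101 to 0.131. Where an adjusted p given here is below 0.10, the change had fallen under 1.3-fold. Second probe sets of vkg (log2 difference 0.06, adjusted p = 0.84), Mnt (log2 difference 0.28, adjusted p = 0.209) and Cyp6a21 (log2 difference -0.18, adjusted p = 0.452) were not called.

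Called genes that are neighbours on the chromosome formed 5 runs of at least 3 measured genes that changed in 1 direction. The longest held 9 delta class transferase genes from GstD10 to GstD7 on 3R, all lower, and another on 3R held the 4 cecropin genes, all lower. A pair of runs on 3R lay within the Enhancer of split complex, E(spl)mdelta-HLH with E(spl)mbeta-HLH and E(spl)malpha-BFM, and E(spl)m2-BFM with E(spl)m3-HLH and E(spl)m4-BFM, all higher. The last was on 2R, with rdgBbeta, Uhg1 and CG6424, all higher. Cell type markers other than the imaginal disc and Malpighian tubule lists overlapped between the groups in their summed level. Salivary gland markers summed from 32166 to 42569 without hormone and from 36784 to 41589.7 with both, and testis markers from 3560.5 to 5291 and from 3684 to 6699, with the highest testis sum in 20E plus cycloheximide replicate 2. Midgut markers summed from 47477 to 57831 and from 47431 to 54519, neuron markers from 828 to 851 and from 792 to 915, and haemocyte markers from 818 to 888 and from 814 to 886. Where 3.16% of all probe sets were called higher and 1.06% lower, 2 of all 71 measured markers were called higher and 2 lower. They were srp, expressed in fat body and haemocytes (0.75), en (0.56), the muscle gene Mp20 (-0.61) and Uro (-0.49), as log2 differences. The call of srp was lost without any no hormone array, 20E replicate 3, 20E plus cycloheximide replicate 1 or 2 or cycloheximide replicate 1 or 3 (adjusted p from 0.102 to 0.274), and that of Mp20 without any no hormone array or 20E plus cycloheximide replicate 2 or 3 (from 0.112 to 0.219).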

How the data were processed

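Total RNA from each of 12 separate organ cultures, 3 per group, was hybridised to 1 Affymetrix Drosophila Genome Array. The authors normalised the arrays with dChip and deposited linear model-based intensities for 13966 probe sets. The array used as baseline is not given in the sources used here, and detection calls were not used here.

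Intensities under 10 were set to 10 and log2 transformed. All 12 arrays were fitted together in limma 3.58.1 (R 4.3.3) with 4 group means and an intensity trend, and p-values were Benjamini-Hochberg adjusted over all probe sets. The threshold of 0.10 and the 1.3-fold limit follow the study's methods, which used SAM. The fit was also run on simulated data, which does not test the calls on these arrays. Because cultures were harvested separately, the p-values measure the spread between cultures. The joint and the single treatments share the no hormone arrays.

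A platform table named 12443 probe sets with 1 gene, 327 held several genes and were left unnamed, the study's probe set lists named 242, RefSeq synonyms named 13, and 941 had no name. Genes named in the text were the 15 largest called changes in each direction without overlap between groups, up to 5 called genes of each gene list, the 7 regulators and the called probe sets that departed from the sum of both single changes. Other list members are given as the rest of their list. The comparison and the gene lists were chosen with earlier results of these data known. A gene in a list was represented by its brightest probe set.

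Alternatives were SAM with 20 label permutations, the 6 compared arrays alone, no trend, floors of 1 and 50, adding 16 before log2, quantile normalisation, centring on the median, dropping the dimmest probe sets, other thresholds, leaving out each array, and the replicate number as a block.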

Additional observations from a re-analysis of the deposited data

Results flagged for a closer look

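For 7 genes called against no hormone, the effect of 20E measured with cycloheximide present differed from its effect without cycloheximide by a test of the difference itself, the interaction term in limma. The interaction was 3.01 log2 units for Osi2 (adjusted p = 0.00842), where 20E moved the mean intensity from 83.3 to 75.5 without cycloheximide and from 85.9 to 641 with it. For Cyp18a1 it was 1.62 (adjusted p = 0.0867), for Blimp-1 1.32 (0.0239), for Eip75B 0.90 (0.0942) and for tai 0.62 (0.0842), all larger with cycloheximide present. It was negative for Tnpo (-0.68, adjusted p = 0.0908) and CG11529 (-1.29, 0.0383), whose means were 156 and 776 with 20E alone and 133 and 524 with both compounds. In limma the joint level was called lower than that with 20E alone for CG11529 (log2 difference -0.58, adjusted p = 0.0487). For Tnpo it was not (log2 difference -0.24, adjusted p = 0.204). With groups of 3 arrays, no single sample was tested as an outlier, and the range of the counts with each array left out is given below.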

How the results depend on the processing

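The 441 higher and 148 lower calls became 82 and 25 when at least a 2-fold change was required, and without a fold limit there were 569 and 266. Leaving out 1 array at a time gave 274 to 484 higher and 112 to 154 lower calls, with the lowest higher count without 20E plus cycloheximide replicate 2. Replicate numbers were shared between groups, and the same-numbered deviations correlated at 0.14, -0.06 and 0.23, against -0.39 to 0.25 for differently numbered ones. With 3 arrays a group these correlations cannot decide whether the replicate number paired the samples. With the replicate number as a block the counts were 525 and 177. The remaining settings, SAM among them, gave 320 to 550 higher and 99 to 165 lower calls, within 1.5 times the reported counts. Of 134 probe sets recomputed under 21 alternatives, 127 were called, 40 of these lost the call under at least 1 alternative, 1 other gained it, and 0 changed direction. Among those remaining settings the fewest calls came with a floor of 50, under which dim genes such as rdgBbeta and PGRP-LF lost their calls, so differences between intensities under 50 rest on that choice. The number of lower antimicrobial peptide genes ranged from 8 to 12, of lower glutathione transferases from 9 to 10, and of higher immediate early genes from 4 to 6.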

Other observations

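The genes given here lay outside the rule for named genes and were chosen after their values were seen. BomS2, which encodes a short immune-induced Bomanin peptide, was higher with both compounds, at 331, 744 and 359 against 122, 162 and 104 without hormone (log2 difference 1.81 ± 0.36 SE, adjusted p = 0.0156 in limma), whereas the called antimicrobial peptide genes were lower. Its mean with cycloheximide alone was 409.7 and with 20E alone 247, and 20E plus cycloheximide replicate 2 was the highest array. CG6865 read 64.3, 69.7 and 69.0 without hormone and 126, 318 and 198 with both compounds (log2 difference 1.56, adjusted p = 0.00321), with means of 81.0 under 20E and 61.2 under cycloheximide, so that the joint arrays lay above all others. CG7142 had close replicates, with 212, 199.98 and 181 against 529, 537 and 567 (log2 difference 1.46, adjusted p = 2.86e-06), and both single treatments stood between these groups, at means of 299 and 310.03. CG17738 fell from 4282, 5554 and 4152 to 1866, 1999.9 and 1613 (log2 difference -1.35, adjusted p = 0.000147), with means of 2394 under 20E and 3063 under cycloheximide.

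Of 1228 genes with more than 1 probe set, AGO2, a gene of the RNA interference pathway, was the 1 called in both directions. Its 2 probe sets gave log2 differences of 0.75 (adjusted p = 0.0159) and -0.41 (adjusted p = 0.0937). The lower call was lost without any 1 of the no hormone arrays, 20E replicate 3, 20E plus cycloheximide replicate 1 or 3 or any 1 of the cycloheximide arrays, at adjusted p-values from 0.11 to 0.244.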
